A study of Mus musculus with 8 samples.

Results

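The proteins that remove introns sit in a small set of RNA-protein particles, and 47 genes that encode them or their close partners are described here in germ cells of the mouse testis. They were taken by a naming rule, as every gene model whose symbol begins with Snrp, Snrnp, Sf3a, Sf3b, Prpf, U2af, Luc7l, Sart1 or Sart3. The members were chosen with earlier results of these data known. The rule found 48 of the 56324 models in the deposited table. All 48 passed the filter on low values, so no member was lost to it. They were ordered here by the particle in which the protein works.

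RNA was sequenced from spermatids, the haploid cells that reshape into sperm, and from spermatocytes, the cells in meiosis that precede them. There were 4 spermatid libraries and 4 spermatocyte libraries, all labelled Sam68 -/-, that is, as knockouts of the RNA-binding protein Sam68. The cells came from 12-week-old C57BL/6 males and were separated by sedimentation at unit gravity, and polyadenylated RNA was made into stranded libraries. No other genotype was analysed here, so every difference below is between cell types of that labelled genotype. Whether the libraries of a cell type stem from different animals is not said, so the spread behind each p-value is that between libraries and may be technical.

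In the major spliceosome, the U1 particle pairs with the 5′ splice site, U2AF and the U2 particle mark the 3′ splice site and the branch point, and the U4/U6.U5 tri-snRNP then joins to form the catalytic core. Each of these particles except U6 carries a ring of Sm proteins around its RNA, and a minor spliceosome with U11 and U12 handles a rare class of introns. In male germ cells splicing patterns change widely during meiosis and spermiogenesis, and transcription stops late in spermatid development when the chromatin is compacted.

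The deposited values are DESeq-normalized counts, that is, reads per model divided by a size factor for the library. Whole reads could be recovered from them and came to 60673309 to 93975960 per spermatid library and 49000266 to 78060212 per spermatocyte library. A count of 3 reads, the limit that a count of 0 allows, corresponds to 2.42 to 4.50 normalized counts, which covers counting error only. The spermatid label fitted its markers: all 10 spermatid markers were called higher in spermatids, and their summed normalized counts were 536164 to 642584 in spermatids and 19294.5 to 35505.9 in spermatocytes. The 9 spermatocyte markers summed to 46146 to 63698 in spermatids, highest in library 1, and to 202301 to 236039 in spermatocytes, and 3 of them, Piwil1, Spo11 and Tex101, were called lower in spermatids. Most of the spermatocyte sum was Piwil1, with a mean of 4256 in spermatids and 136863 in spermatocytes. The other 6 were not called, and of these Sycp1 (log2 fold change 0.10), Meiob (0.53) and Msh4 (0.30) had positive values and Ccna1 was at -0.12, so the spermatocyte markers separated the cell types only in part. Markers of other cells also moved with the comparison. The 12 Sertoli cell markers, all called lower in spermatids, summed to 2533 to 6445 in spermatids and 29618 to 148959 in spermatocytes. Of 6 Leydig cell markers 5 were called lower, with sums of 2176 to 2459 in spermatids and 4618 to 8508 in spermatocytes. Of 12 macrophage and blood markers 10 were tested and 8 called higher, with sums of 3517 to 7076 in spermatids and 835 to 3285 in spermatocytes; Tyrobp and the globin genes Hba-a1 and Hbb-bs were at 0 in at least 1 library. Of 10 spermatogonial markers 9 were tested and 5 called higher, with sums of 2353 to 5097 in spermatids and 693 to 1453 in spermatocytes. Of 7 peritubular and endothelial markers 5 were called higher and 1 lower, with sums of 3983 to 4716 in spermatids and 729.5 to 1170 in spermatocytes. The part of these other cells in the differences below was not tested. Khdrbs1, the gene of Sam68, still had 651, 625, 854 and 1129 normalized counts in spermatid libraries 1 to 4 and 3808, 3421, 4319 and 4985 in spermatocyte libraries 1 to 4. Which part of the gene is deleted is not given in the sources used here, so these reads do not check the genotype.

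Transcripts of the core spliceosome made up a smaller share of spermatid RNA than of spermatocyte RNA. The 48 models summed to 0.183, 0.154, 0.146 and 0.148% of all normalized counts in spermatid libraries 1 to 4, against 0.310, 0.312, 0.370 and 0.355% in spermatocyte libraries 1 to 4. Every spermatid library lay below every spermatocyte library. A gene was called at a limma adjusted p below 0.05 (Benjamini-Hochberg over all 28735 tested models) and a change of 2-fold or more in either direction, a distance of 1 on the log2 scale. By that rule 18 of the 48 models were lower in spermatids and 2 were higher, Snrpn and Sf3b4, while 28 were not called. Across all tested models 62.3% were called, 29.8% lower and 32.5% higher, and among the 18186 tested models that match an annotated gene 21.1% were called lower and 35.5% higher. The members' 37.5% lower calls thus stood above these shares, and their 4.17% higher calls stood far below them. The median log2 fold change was -0.70 over the 48 models, against -0.01 over all tested models and 0.25 over the annotated ones. In bulk RNA, fewer cells of a type and less RNA per cell cannot be told apart. Normalized counts are scaled by a size factor and not by the library total. They summed to 6.84e+07 to 9.11e+07 in spermatid libraries and 5.48e+07 to 6.50e+07 in spermatocyte libraries. An equal normalized count is therefore a smaller share of a library's counts in spermatids.

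Counts that need no 2-fold change also leaned to lower values in spermatids. They are over all 48 models and so include the 18 lower and 2 higher calls. With the adjusted p alone and no minimum fold, 29 models were lower and 7 higher in spermatids, where 35.8 and 36.5% of all tested models were. For 27 models all 4 spermatid libraries lay below all 4 spermatocyte libraries, and for 6 models all lay above, against 32.2 and 34.2% of all tested models. The fold change was negative for 36 models and positive for 12. Over all tested models it was negative for 14430 and positive for 14305, and over the annotated ones for 8075 and 10111. Of the 48 models 46 averaged at least 500 normalized counts in the cell type where they were higher, and these 46 held all 18 lower and both higher calls. Of all tested models at that level 23.3% were called lower and 33.2% higher, and of the annotated ones 22.5 and 32.1%. Spermatid library 1 was the highest of its cell type for 21 models and the lowest for 18. Spermatocyte library 4 was the highest for 26 and the lowest for 13. Without both of these libraries, 20 models were called lower and 3 higher.

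**Figure D1:**
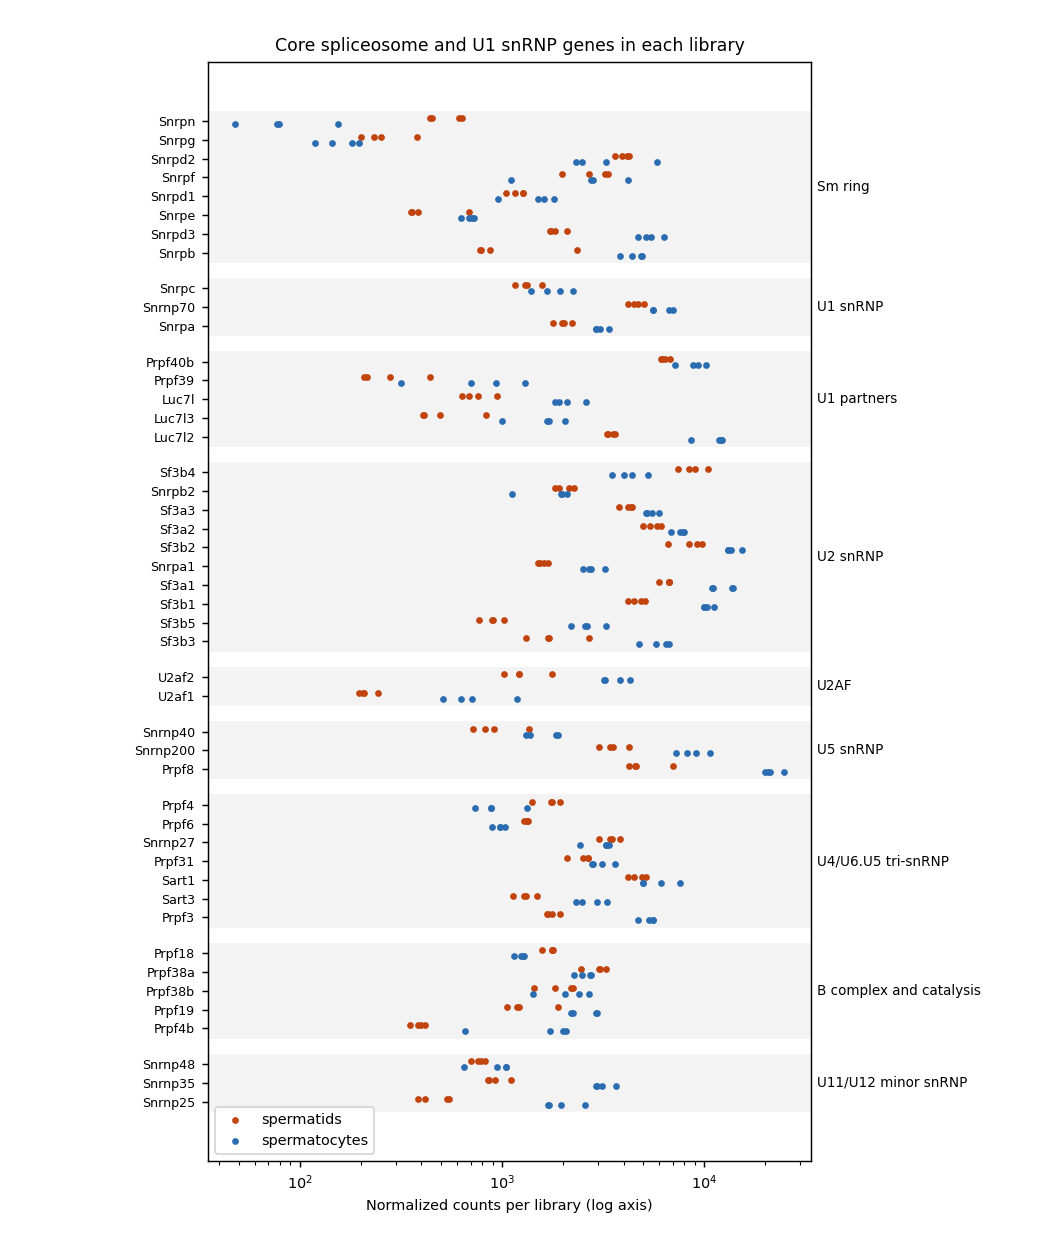
Normalized counts (log axis) of 46 of the 48 models in each library, grouped by particle, with spermatid libraries drawn above spermatocyte libraries within each row. Prpf8, Snrnp25 and both U2AF genes show separated groups with spermatids lower, Snrpn shows the reverse, and Prpf39 and Prpf4b each have a spermatocyte library near or within the spermatid values.

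The calls were also counted by particle class. Each class holds only genes that match the naming rule, and other proteins of the particles stand among the partners below. The pair of U2AF genes were both called lower, as were 2 of 3 U5 members, 2 of 3 members of the minor U11/U12 particle and 4 of 7 models of U1 partners. None of the 3 proteins that belong to U1 itself was called in either direction, although Snrpa was called lower when every library was scaled to the same total. The Sm ring split, with 2 of 8 called lower and 1 higher around a median log2 fold change of -0.05. Among U2 proteins 3 of 10 were called lower and 1 higher. In the tri-snRNP class, which also holds the U4/U6 recycling factor Sart3, 2 of 7 were called lower, Prpf3 and Sart3, and none higher. Class medians of the log2 fold change ran from -1.76 in U11/U12, -1.63 in U2AF, -1.48 in U1 partners and -1.31 in U5 to -0.76 in U2, -0.43 in U1, -0.31 in the tri-snRNP and -0.14 in B complex and catalysis. Lower calls made up 57.1 to 100% of the U1 partner, U5, U11/U12 and U2AF classes and 0% of U1. They made up 30% of U2, 28.6% of the tri-snRNP, 25% of the Sm ring and 20% of B complex and catalysis. Over all tested models the share was 29.8%, and over the annotated ones 21.1%. The classes hold 2 to 10 models each, and differences between them were not tested.

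**Figure D2:**
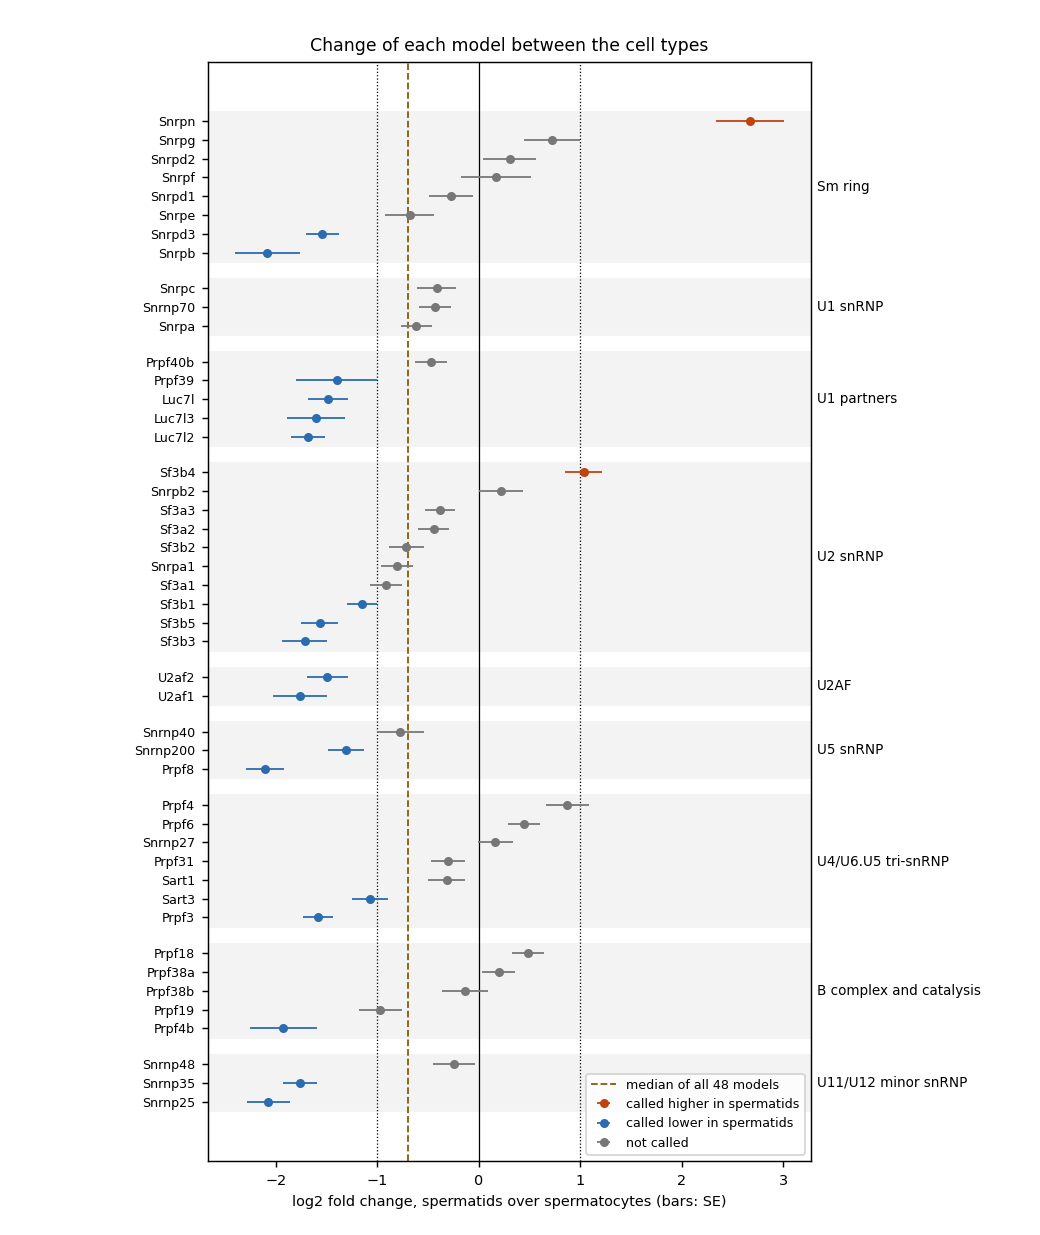
Log2 fold change of 46 of the 48 models, spermatids over spermatocytes, with its standard error, grouped by particle. Blue points are the 18 models called lower in spermatids, orange points the 2 called higher and grey points 26 of the 28 not called; the dashed line is the median of all 48 models, -0.70, and dotted lines mark a 2-fold change.

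Promoter sequences were available for 37 of the 47 genes, taken from RefSeq on GRCm38.p6 as 250 bases before and 50 bases after each annotated start. They are shown for 4 genes with large falls in spermatids and for Snrpn, the gene with the largest rise, so that the start regions of genes that moved in opposite directions can be read side by side. Each is printed 5′ to 3′ on the strand of the gene, at chr11:75486527-75486826 (plus strand) for Prpf8, chr11:32205165-32205464 (plus) for Snrnp25, chr13:34875279-34875578 (plus) for Prpf4b, chr8:110846754-110847053 (minus) for Sf3b3 and chr7:60140176-60140475 (minus) for Snrpn. Capitals mark exact matches, on either strand, to the ETS core CCGGAAG, the GC box GGGCGG, the CCAAT box CCAAT and the TATA box TATAAA.
Prpf8: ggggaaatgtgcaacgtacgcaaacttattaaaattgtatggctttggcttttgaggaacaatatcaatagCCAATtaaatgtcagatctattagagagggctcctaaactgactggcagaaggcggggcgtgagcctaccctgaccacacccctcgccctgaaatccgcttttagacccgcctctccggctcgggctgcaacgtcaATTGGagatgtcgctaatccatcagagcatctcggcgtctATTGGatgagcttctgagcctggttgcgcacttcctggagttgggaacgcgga
Snrnp25: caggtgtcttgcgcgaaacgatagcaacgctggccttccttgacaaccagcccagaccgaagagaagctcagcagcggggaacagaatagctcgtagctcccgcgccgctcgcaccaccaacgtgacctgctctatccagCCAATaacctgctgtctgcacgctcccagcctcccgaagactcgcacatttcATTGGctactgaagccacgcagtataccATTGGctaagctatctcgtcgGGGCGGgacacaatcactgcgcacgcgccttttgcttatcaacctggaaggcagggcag
Prpf4b: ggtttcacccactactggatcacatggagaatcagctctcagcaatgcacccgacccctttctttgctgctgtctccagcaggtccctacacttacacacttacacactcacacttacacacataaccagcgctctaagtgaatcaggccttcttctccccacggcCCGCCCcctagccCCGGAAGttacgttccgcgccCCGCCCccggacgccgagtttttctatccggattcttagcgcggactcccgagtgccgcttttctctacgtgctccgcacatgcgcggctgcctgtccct
Sf3b3: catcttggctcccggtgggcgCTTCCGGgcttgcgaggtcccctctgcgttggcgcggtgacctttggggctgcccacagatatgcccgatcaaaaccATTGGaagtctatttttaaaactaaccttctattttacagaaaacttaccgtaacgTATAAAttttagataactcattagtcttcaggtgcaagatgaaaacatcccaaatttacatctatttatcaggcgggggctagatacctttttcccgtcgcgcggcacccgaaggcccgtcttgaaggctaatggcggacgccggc
Snrpn: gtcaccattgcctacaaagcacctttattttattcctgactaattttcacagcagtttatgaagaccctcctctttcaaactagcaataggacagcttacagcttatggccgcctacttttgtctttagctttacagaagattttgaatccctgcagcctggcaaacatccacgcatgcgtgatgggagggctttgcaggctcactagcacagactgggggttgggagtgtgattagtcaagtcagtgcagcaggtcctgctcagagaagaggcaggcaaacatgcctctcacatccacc

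These windows show that the falling genes do not share a single layout. Prpf8 carries CCAAT boxes in both orientations and no GGGCGG, Snrnp25 combines CCAAT boxes with a GC box, Prpf4b has GC boxes and an ETS core, and Sf3b3 has an ETS core, a CCAAT box and a TATA box. The Snrpn window is that of the RefSeq start nearest to the start of the table's model and holds none of these motifs, while other RefSeq starts of the gene hold a CCAAT box and a TATA box; counts per gene do not say which start is used. Over all 37 member genes, the ETS core was present at a start of 16 genes (43.2%), against 16.0% of the 12846 tested genes with a promoter sequence and 9.93% of all 27025 genes. It was present in 4 of the 13 genes called lower and in 12 of the 23 not called. The GC box was present in 62.2% of members and 59.9% of tested genes, the CCAAT box in 40.5 and 42.1%, and the TATA box in 10.8 and 10.2%. The cyclic AMP element TGACGTCA was found in 2 member genes, Snrpa and Snrpg (5.41%), against 3.11% of tested genes. For GC content the window richest in GC was taken for each gene, so genes with more annotated starts had more windows to choose from. Its median was 58.0% over members and 53.3% over all genes with a promoter sequence, tested or not. None of these motifs contains another, and a match is a description of sequence only.

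The Sm ring holds together the RNA of every particle except U6, and its genes held both falls and a rise. Snrpb encodes SmB, a ring subunit made in most tissues (chr2:130171627-130179407, mm10). It had 2350, 786, 778 and 875 normalized counts in spermatid libraries 1 to 4, against 4387, 3836, 4866 and 4951 in spermatocyte libraries 1 to 4. Spermatid library 1 stood well above the other spermatid libraries, yet below all spermatocyte libraries. The log2 fold change was -2.08 ± 0.32 (SE, adjusted p 7.27e-05), and it was -2.47 without spermatid library 1. Snrpn encodes SmN, a close relative that can take the place of SmB and is best known from neurons; its gene lies in an imprinted locus (chr7:59982501-60140219, listed jointly with Snurf). It had 451, 439, 612 and 637 normalized counts in spermatid libraries 1 to 4, against 77.4, 48.1, 154 and 78.8 in spermatocyte libraries 1 to 4. No library of either cell type crossed over, and the means differed 5.97-fold, with a log2 fold change of 2.67 ± 0.34 (adjusted p 1.50e-05). The coding sequences of the pair are 81.1% identical over 677 aligned bases, and Snrpn has stretches of at least 95% identity with 2 other annotated genes, so some reads could be shared.

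Within each library the ratio of Snrpn to Snrpb was 0.192, 0.559, 0.788 and 0.728 in spermatid libraries 1 to 4, against 0.0179, 0.0128, 0.0319 and 0.0161 in spermatocyte libraries 1 to 4. Spermatid libraries 2 to 4 had the highest ratios and every spermatid library exceeded every spermatocyte library. The ratio is not corrected for length, and the annotated exons span 2153 bases in Snrpn and 1763 in Snrpb. On the log2 scale the ratio averaged -1.004 ± 0.94 in spermatids and -5.76 ± 0.56 in spermatocytes (SD, n = 4 each), a difference of 4.75. The exact two-sided permutation test gave p = 0.0286, the smallest that 4 against 4 allows, and 0.0571 after Benjamini-Hochberg adjustment over the 6 pairs compared, so the adjusted threshold was not passed.

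Snrpd3, which encodes SmD3, the ring partner of SmB, was also called lower (1855 ± 166 normalized counts in spermatids and 5425 ± 692 in spermatocytes, SD, n = 4 each). Its log2 fold change was -1.54 ± 0.16 (adjusted p 3.19e-06), and its groups did not overlap. Snrpd2, the ring gene with the highest mean normalized count, had 4271, 3932, 4170 and 3649 in spermatid libraries 1 to 4, against 3260, 2497, 2316 and 5856 in spermatocyte libraries 1 to 4. The spermatid values lay inside the spermatocyte range, which was stretched by library 4, and the log2 fold change was 0.30 ± 0.26 (adjusted p 0.312). It turned to -0.13 when every library was scaled to the same total. Without spermatocyte library 4 it was 0.59 (adjusted p 0.00944), still under a 2-fold change. The remaining ring genes Snrpd1, Snrpe, Snrpf and Snrpg had log2 fold changes of -0.27, -0.68, 0.17 and 0.72 and were not called. For Snrpf the direction rested on spermatocyte library 4, where it had 1106 normalized counts and the other 3 had 2753 to 4225; leaving library 4 out gave a log2 fold change of -0.21. Snrpf also lies opposite the abundant Ccdc38, and the strand setting of the authors' counting is not given in the sources used here. The same doubt touches called genes that lie opposite another annotated gene, namely Snrpd3 (Gucd1), Prpf39 (Fkbp3), Sf3b3 (Cog4), Luc7l and Luc7l2. Models that overlap Sf3b3 had means of up to 2925 normalized counts over all libraries, and those that overlap Prpf39 up to 648. Models without a symbol also overlap the called genes Sf3b5, Snrpb and Luc7l3, with means of up to 525.8, 363.2 and 273.5. Processed pseudogenes with near-identical stretches exist for Snrpd1, Snrpd2, Snrpe, Snrpf and Snrpg, so their counts are less certain.

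Because Sm proteins occur in equal number in the ring, their genes were also set side by side per kilobase of annotated exon. In spermatids the order was Snrpf (3467 ± 775 normalized counts per kilobase, SD, n = 4), Snrpd2 (2375 ± 164), Snrpd3 (1216 ± 109), Snrpb (679 ± 437), Snrpd1 (673 ± 58.7), Snrpe (328 ± 118), Snrpg (295 ± 87.3) and Snrpn (248 ± 48.4). In spermatocytes it was Snrpd3 (3555 ± 454), Snrpf (3351 ± 1568), Snrpb (2558 ± 291), Snrpd2 (2064 ± 969), Snrpd1 (833 ± 206), Snrpe (506 ± 32.7), Snrpg (176 ± 39.1) and Snrpn (41.6 ± 21.1). In spermatids Snrpb, whose spread was wide, did not differ beyond spread from Snrpd3, Snrpd1, Snrpe, Snrpg or Snrpn. Snrpe, Snrpg and Snrpn did not differ from each other beyond it either. In spermatocytes Snrpf overlapped Snrpd3, Snrpb and Snrpd2 within their spread, as did Snrpb and Snrpd2. There Snrpd3 lay above Snrpb and Snrpd2 beyond their spread. The length counts every annotated exon of the gene, whether or not it is used in these cells.

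U1 opens spliceosome assembly at the 5′ splice site, and no gene of its own proteins reached a 2-fold change. Snrnp70, the U1-70K protein that grips the first stem-loop of U1 RNA, had 4222, 5043, 4694 and 4498 normalized counts in spermatid libraries 1 to 4, against 5602, 5584, 6742 and 7059 in spermatocyte libraries 1 to 4. The groups did not overlap, but the difference was small, with a log2 fold change of -0.43 ± 0.16 (adjusted p 0.0272). Snrpa, which binds the second stem-loop of U1 RNA, had 2032, 1989, 2225 and 1799 in spermatid libraries 1 to 4, against 3390, 2910, 3077 and 2939 in spermatocyte libraries 1 to 4. Its groups were likewise separate, with a log2 fold change of -0.62 ± 0.16 (adjusted p 0.00334); it was called lower only with equal totals per library (-1.05). Snrpc, the zinc-finger protein that stabilises pairing with the splice site, ranged over 1168 to 1574 in spermatids and 1393 to 2247 in spermatocytes, which overlap, and its log2 fold change was -0.41 ± 0.19 (adjusted p 0.0728). Snrpa lies opposite BC024978, whose mean over all libraries was 1136 normalized counts. Processed pseudogenes with near-identical stretches exist for Snrpa and Snrpc, so the counts of both are less certain.

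Snrpb2, the U2 relative of Snrpa, offers a comparison within each library. It had 2271, 2149, 1910 and 1824 normalized counts in spermatid libraries 1 to 4, against 2096, 1994, 1951 and 1129 in spermatocyte libraries 1 to 4. The groups overlapped, and the log2 fold change of 0.22 ± 0.22 (adjusted p 0.372) turned to -0.22 with equal totals per library. The log2 ratio of Snrpb2 to Snrpa averaged 0.02 ± 0.17 in spermatids and -0.82 ± 0.38 in spermatocytes (SD, n = 4 each), a difference of 0.84. The ratio was higher in every spermatid library than in any spermatocyte library, with an exact permutation p of 0.0286 and 0.0571 after adjustment. The doubts given above for the counts of Snrpa also touch this ratio.

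Of the proteins that bind U1 loosely and help it choose 5′ splice sites, Luc7l, Luc7l2, Luc7l3 and Prpf39 were called lower. The 3 Luc7l genes are the mouse relatives of Luc7, a U1 protein of budding yeast that supports weak 5′ splice sites. Luc7l2 (chr6:38551333-38609470) had 3300, 3649, 3336 and 3554 normalized counts in spermatid libraries 1 to 4, against 8668, 11818.5, 12152 and 12269.5 in spermatocyte libraries 1 to 4. Spermatocyte library 1 was the lowest of its group but still far above all spermatid libraries, and the log2 fold change was -1.69 ± 0.17 (adjusted p 1.81e-06). Luc7l3 (chr11:94291140-94321965) had 837, 409, 409.8 and 495 in spermatid libraries 1 to 4, against 1679, 1711, 2063 and 1000 in spermatocyte libraries 1 to 4. Spermatid library 1 and spermatocyte library 4 came near each other without crossing, and the log2 fold change was -1.60 ± 0.29 (adjusted p 2.73e-04), or -2.05 without those libraries. Luc7l had 945, 763, 632 and 689 in spermatid libraries 1 to 4, against 1841, 1921.5, 2601 and 2095 in spermatocyte libraries 1 to 4. Its groups were separate, with a log2 fold change of -1.48 ± 0.19 (adjusted p 2.11e-05).

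Although all 3 Luc7l genes were called lower, their balance within a library did not differ by an amount the test could show. The log2 ratio of Luc7l to Luc7l2 averaged -2.21 ± 0.28 in spermatids and -2.41 ± 0.21 in spermatocytes, a difference of 0.20 (exact permutation p = 0.314, adjusted 0.377). For Luc7l3 to Luc7l2 the averages were -2.75 ± 0.53 in spermatids and -2.83 ± 0.55 in spermatocytes, a difference of 0.08 (exact permutation p = 0.886, adjusted 0.886). The sign of the Luc7l3 to Luc7l2 difference turned when spermatid library 1 was left out (-0.17) or spermatocyte library 4 was left out (-0.18).

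Prpf40b, a relative of the yeast U1 protein Prp40 that bridges the 5′ splice site and the branch point, had 6396, 6235, 6763 and 6112 normalized counts in spermatid libraries 1 to 4, against 8795, 7232, 9342 and 10257 in spermatocyte libraries 1 to 4. All spermatid libraries were lower, by a log2 fold change of -0.47 ± 0.16 (adjusted p 0.019). It was not called, since the change stayed under 2-fold. Prpf39, relative of another yeast U1 protein, had 441, 215, 209 and 279.7 in spermatid libraries 1 to 4, against 700.3, 933, 1298 and 317 in spermatocyte libraries 1 to 4. It was called lower (log2 fold change -1.40 ± 0.40, adjusted p 0.00732) although spermatocyte library 4 lay inside the spermatid range, and reads of the opposite-strand Fkbp3 could be mixed in.

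**Figure D3:**
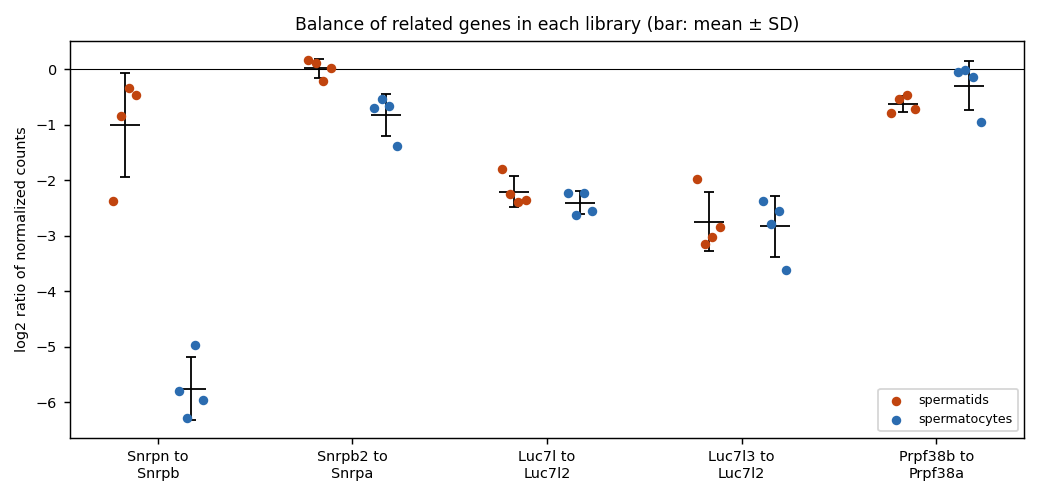
Log2 ratio of normalized counts for 5 pairs of related genes in each library, spermatids left of spermatocytes, with the mean ± SD of 4 libraries. The groups are separate for Snrpn to Snrpb and for Snrpb2 to Snrpa, and they overlap for the Luc7l family and for Prpf38b to Prpf38a.

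At the other end of the intron, both U2AF subunits were lower in spermatids. U2af2 encodes the large subunit, which binds the polypyrimidine tract, and U2af1 the small subunit, which reads the AG at the 3′ splice site. U2af2 had 1764, 1023, 1222 and 1222 normalized counts in spermatid libraries 1 to 4, against 3224, 3198, 3830 and 4305 in spermatocyte libraries 1 to 4. U2af1 (chr17:31647082-31658754) had 243, 196, 206 and 208 in spermatid libraries 1 to 4, against 514, 629, 711 and 1184 in spermatocyte libraries 1 to 4. Neither gene had overlapping groups. The log2 fold changes were -1.49 ± 0.20 for U2af2 (adjusted p 2.64e-05) and -1.76 ± 0.27 for U2af1 (adjusted p 6.80e-05). Processed pseudogenes with near-identical stretches exist for both. A relative of the small subunit, U2af1l4, appears in the table only in a row shared with Igflr1 and was not compared.

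U2 proteins hold the branch point, and their changes spread from a fall to a rise. Sf3b3, a scaffold of the SF3b subcomplex (chr8:110810239-110846803), had 2691, 1688, 1323 and 1710 normalized counts in spermatid libraries 1 to 4, against 4773, 5802, 6686 and 6478 in spermatocyte libraries 1 to 4. Spermatid library 1 was the highest of its group and the groups stayed apart, with a log2 fold change of -1.72 ± 0.22 (adjusted p 1.90e-05); reads of the opposite-strand Cog4 could be mixed in. Sf3b5, a small SF3b subunit, ranged over 773 to 1020 in spermatids and 2207 to 3273 in spermatocytes (log2 fold change -1.57 ± 0.18, adjusted p 7.12e-06). Sf3b1, which encloses the branch site, ranged over 4226 to 5130 in spermatids and 9972 to 11214 in spermatocytes (log2 fold change -1.15 ± 0.15, adjusted p 1.92e-05). Both had separate groups. Sf3b4, an RNA-binding SF3b subunit (chr3:96172524-96177564), moved the other way, with 7404, 8998, 10432 and 8408 in spermatid libraries 1 to 4, against 4420, 4040, 3510 and 5302 in spermatocyte libraries 1 to 4. Every spermatid library was higher, and the log2 fold change of 1.03 ± 0.18 (adjusted p 2.38e-04) stood just past the 2-fold minimum. It was 0.60 with equal totals per library, 0.54 with quantile normalization, 0.95 without spermatid library 3 and 0.94 without spermatocyte library 3, and so was not called in those settings. A processed pseudogene, Gm7935, shares a near-identical stretch with Sf3b4.

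Sf3b2, the U2 gene with the highest mean, had 6646, 9731, 9242 and 8459 normalized counts in spermatid libraries 1 to 4, against 13139, 13649, 13178 and 15446 in spermatocyte libraries 1 to 4. It was lower in every spermatid library, by a log2 fold change of -0.71 ± 0.17 (adjusted p 0.00222), without reaching a 2-fold change. The SF3a subunits Sf3a1, Sf3a2 and Sf3a3 had log2 fold changes of -0.92, -0.44 and -0.38, and Snrpa1, which binds U2 RNA together with Snrpb2, had -0.81. These genes too had all spermatid libraries below all spermatocyte libraries. Thus 8 of the 10 U2 genes were lower at the adjusted p with no minimum fold, and Sf3b4 alone was higher.

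U5 brings the proteins at the heart of the catalytic spliceosome, and the lowest log2 fold change of the 48 models was found here. Prpf8 encodes the large protein that cradles the active site (chr11:75486777-75509447). It had 7040, 4610, 4275 and 4580 normalized counts in spermatid libraries 1 to 4, against 20724, 21304, 19959 and 24829 in spermatocyte libraries 1 to 4. Spermatid library 1 was raised relative to its group, yet the highest spermatid library had far fewer than the lowest spermatocyte library. Spermatocytes averaged 4.23 times as many normalized counts, and the log2 fold change was -2.11 ± 0.19 (adjusted p 7.92e-07), or -2.27 without spermatid library 1. Snrnp200, the helicase that unwinds U4 from U6, ranged over 3020 to 4252 in spermatids and 7283 to 10680 in spermatocytes (log2 fold change -1.31 ± 0.18, adjusted p 2.97e-05). Snrnp40, a WD-repeat protein of U5, ranged over 721 to 1362 in spermatids and 1319 to 1893 in spermatocytes, and its log2 fold change of -0.77 ± 0.23 (adjusted p 0.00946) was not called.

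**Figure D4:**
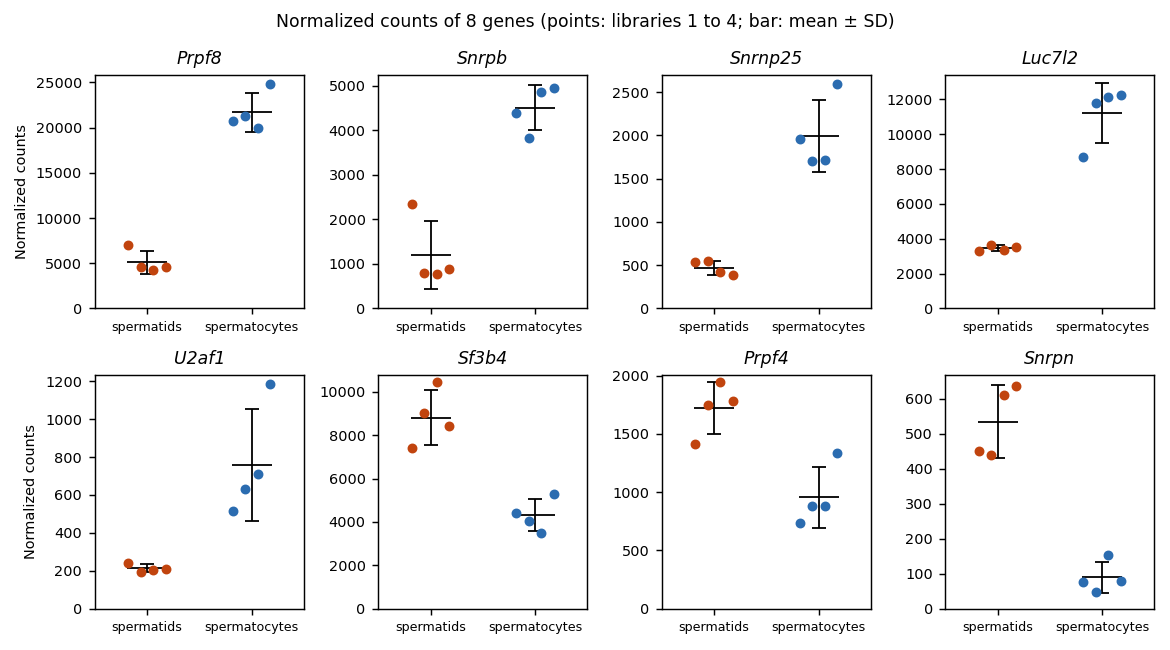
Normalized counts of 8 genes in each library (linear axes from 0), spermatids left of spermatocytes, with the mean ± SD of 4 libraries. Prpf8, Snrpb, Snrnp25, Luc7l2 and U2af1 were called lower in spermatids, Sf3b4 and Snrpn were called higher, and Prpf4 was higher in every spermatid library without a call.

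The U4/U6 proteins of the tri-snRNP included a binding pair with fold changes of opposite sign. Prpf3 and Prpf4 encode proteins that bind each other on U4/U6. Prpf3 (chr3:95830124-95855819) had 1930, 1765, 1681 and 1697 normalized counts in spermatid libraries 1 to 4, against 4713, 5338, 5611 and 5585 in spermatocyte libraries 1 to 4, a log2 fold change of -1.58 ± 0.15 (adjusted p 1.42e-06). Its 4 spermatid libraries were close together and far below the others. Prpf4 ranged over 1410 to 1943 in spermatids and 733 to 1335 in spermatocytes, with every spermatid library higher. Its log2 fold change of 0.87 ± 0.21 (adjusted p 0.00277) fell short of a call; it was 1.00 with TMM scaling and 1.04 without spermatocyte library 4. Sart3, which helps U4 and U6 pair again after each round of splicing, ranged over 1135 to 1492 in spermatids and 2330 to 3312 in spermatocytes (log2 fold change -1.07 ± 0.18, adjusted p 1.52e-04). Its call was lost with TMM scaling (-0.94), with GC correction (-0.79), without spermatocyte library 4 (-0.98) and without spermatocyte libraries 3 and 4 (-0.89).

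Sart1, the tri-snRNP gene with the highest mean, had 4212, 4512, 5181 and 4932 normalized counts in spermatid libraries 1 to 4, against 5002, 5006, 6162 and 7598 in spermatocyte libraries 1 to 4. The groups overlapped, and the log2 fold change was -0.32 ± 0.18 (adjusted p 0.131). Prpf31, which locks onto U4 RNA and is known from inherited retinal degeneration in humans, had a log2 fold change of -0.31. Prpf6, the bridge between U5 and U4/U6, had 0.45, and Snrnp27 had 0.16, which was -0.27 with equal totals; none of these was called.

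Among B complex and catalytic factors, the kinase gene Prpf4b was the only call in a class of 5. Prpf4b phosphorylates tri-snRNP proteins when the B complex forms (chr13:34875494-34906063). It had 416, 399, 353 and 384 normalized counts in spermatid libraries 1 to 4, against 1999, 2084, 1738 and 655 in spermatocyte libraries 1 to 4. Spermatocyte library 4 was much lower than the other spermatocyte libraries but above all spermatid libraries, and the log2 fold change was -1.93 ± 0.33 (adjusted p 1.87e-04), or -2.32 without that library. Spermatocyte library 4 also stood apart in the spermatocyte markers. Their mean log2 level there was 12.07, against 13.01 to 13.3 in the other spermatocyte libraries. Spermatid library 1 stood above it at 12.32, so the cell types overlapped on this measure. Sycp1 (1653 normalized counts), Sycp3 (3303), Hormad1 (1395), Meiob (118) and Msh4 (638) were lower in spermatocyte library 4 than in every spermatid library. Piwil1, Spo11, Ccna1 and Tex101 were higher there than in every spermatid library. The part of this in the low values of Prpf4b, Prpf39, Luc7l3 and Snrpf in spermatocyte library 4 was not tested.

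Prpf38a and Prpf38b, relatives of the yeast protein Prp38 that acts when the spliceosome is activated, were among the most even members. Prpf38a had 2475, 3272, 3043 and 3013 normalized counts in spermatid libraries 1 to 4, against 2489, 2735, 2283 and 2758 in spermatocyte libraries 1 to 4. Prpf38b had 1436, 2249, 2204 and 1826 in spermatid libraries 1 to 4, against 2400, 2692, 2064 and 1420 in spermatocyte libraries 1 to 4. Both genes overlapped between the cell types, with log2 fold changes of 0.20 ± 0.16 for Prpf38a (adjusted p 0.289, turning to -0.24 with equal totals per library) and -0.14 ± 0.23 for Prpf38b (adjusted p 0.61). Their log2 ratio, Prpf38b to Prpf38a, averaged -0.63 ± 0.15 in spermatids and -0.29 ± 0.44 in spermatocytes, a difference of -0.33 (exact permutation p = 0.2, adjusted 0.3). Prpf19, the ubiquitin ligase of the catalytic stages, ranged over 1062 to 1891 in spermatids and 2211 to 2958 in spermatocytes and narrowly missed the fold minimum (log2 fold change -0.97 ± 0.21, adjusted p 0.00132; -1.15 and called without spermatid library 1). Prpf18, a factor of the second catalytic step, had a log2 fold change of 0.49.

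Of the 3 minor spliceosome genes that match the naming rule, 2 were called lower. Its other genes are counted among the partners below. Snrnp25 and Snrnp35 belong to U11, which recognises the 5′ splice site of minor introns, and Snrnp35 resembles U1-70K. Snrnp25 (chr11:32205414-32209000) had 534, 546, 419 and 385 normalized counts in spermatid libraries 1 to 4, against 1962, 1702, 1711 and 2593 in spermatocyte libraries 1 to 4. Snrnp35 (chr5:124483133-124491123) had 855, 1105, 928 and 862 in spermatid libraries 1 to 4, against 3146, 2909, 2970 and 3665 in spermatocyte libraries 1 to 4. Both were far apart between the cell types, with log2 fold changes of -2.07 ± 0.21 for Snrnp25 (adjusted p 2.23e-06) and -1.76 ± 0.17 for Snrnp35 (adjusted p 1.47e-06). Snrnp48, a further U11 protein, overlapped (702 to 823 in spermatids and 651 to 1054 in spermatocytes, log2 fold change -0.24 ± 0.20). The U1-70K and U11-35K counterparts thus both had lower values in spermatids, by 0.43 and 1.76 on the log2 scale; the difference between these was not tested.

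Partners of these particles that do not carry the family names were counted in the same way. The 10 lists of other spliceosome factors held 107 genes, of which 106 were tested, and 33 were called lower and 12 higher in spermatids. Of all tested models 29.8% were called lower and 32.5% higher, and of those that match an annotated gene 21.1 and 35.5%. The lower calls were thus near the share of all models and above that of the annotated ones, and the higher calls were below both. The LSm list, Lsm1 to Lsm8, had the lowest median log2 fold change of the 10, -1.10, with 5 of 8 genes called lower and none higher. Lsm1, among those called lower (-1.10 ± 0.18), belongs to the cytoplasmic decay ring; of the 7 genes of the U6 ring, 4 were called lower. The strongest falls were in Lsm7 (34.1 normalized counts in spermatids and 216 in spermatocytes, log2 fold change -2.91 ± 0.46) and Lsm3 (858 in spermatids and 3653 in spermatocytes, log2 fold change -2.17 ± 0.25). Among 16 genes for Sm-ring assembly and import, 3 were higher and 2 lower around a median of 0.50. There Gemin8, of the SMN complex, rose (log2 fold change 2.19 ± 0.28) and Prmt5, which methylates Sm proteins, fell (-1.99 ± 0.19). Of 10 minor spliceosome partners 3 were lower and 1 higher, median -0.47, with falls in Pdcd7 (-2.73 ± 0.21), which encodes a U11 protein, and Armc7 (-2.72 ± 0.36).

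Of 11 branch-site and U2 partners 4 were lower and 1 higher, median -0.34. Rbm10 rose (log2 fold change 2.44 ± 0.37) while its close relative Rbm5, a splicing regulator needed in mouse spermatids, fell (-2.27 ± 0.15). Rbm5 had 4350, 4491, 4256 and 4597 normalized counts in spermatid libraries 1 to 4, against 18759, 21189, 21529 and 24403 in spermatocyte libraries 1 to 4, with no overlap. Of 13 tri-snRNP and B-complex partners 4 were lower and 2 higher, median -0.74, with Zmat2 lower (-1.68 ± 0.19) and Nhp2l1, the U4-binding 15.5K protein, higher (1.61 ± 0.19). Of 19 Prp19-complex and catalytic-stage genes 6 were lower and 2 higher, median -0.52; Bcas2, a core subunit of the Prp19 complex, rose (2.17 ± 0.20) and the cyclophilin gene Cwc27 fell (-1.49 ± 0.23). Of 10 spliceosomal helicases 3 were lower and none higher, median -0.50, led by Ddx39b (-1.80 ± 0.25) and Ddx23 (-1.43 ± 0.18).

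The exon junction complex and its partners had 3 of 9 genes lower and none higher, median -0.63, led by Pnn (-1.88 ± 0.18) and Rnps1 (-1.71 ± 0.30). Of 6 further U1 partners 3 were lower and none higher, median -0.66, led by Srsf1 (-1.33 ± 0.29, with spermatocyte library 4 below spermatid library 1), an SR protein, and Tia1 (-1.33 ± 0.19), which draws U1 to weak sites. The kinases that phosphorylate SR proteins formed the only list without a lower call, with 3 of 6 tested genes higher and a median of 0.76. Clk4 (1.44 ± 0.21) and Srpk2 (1.37 ± 0.18) led it. Srpk2 had 14663, 17162, 22170 and 20704 normalized counts in spermatid libraries 1 to 4, against 6800, 7423, 7991 and 6407 in spermatocyte libraries 1 to 4, so its groups were well apart.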

How the data were processed

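RNA of 4 spermatid and 4 spermatocyte libraries was compared within Sam68 -/- mice. The authors deposited a normalized signal per gene model, the read count divided by a size factor; its label announces DESeq normalization, and the table's header gives mm10 coordinates. STAR 2.4.0, SAMtools, DESeq, Picard, FastQC and the mm10 build are listed without roles, per the submitters' processing notes; no source used here gives the counting tool or its strand setting. In every library 100% of the values were within 0.1 read of a whole multiple of a fixed step, so whole reads were recovered. The table holds 8 further columns of values that were not used, 32111 models without a symbol and 636 that share a symbol.

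A model was tested if 4 or more libraries had 10 or more normalized counts (28735 models), on log2(normalized count + 1), with limma 3.58.1 in R 4.3.3, trend and robust moderation, all 8 libraries and no covariate. The added 1 understates the change of low genes. Adjusted p-values of genes are from this test, Benjamini-Hochberg over all tested models, and a call needs one below 0.05 together with a log2 change of 1 or more in size. Ratios of related genes were compared by exact two-sided permutation tests in SciPy 1.17.1, on log2 of (count + 1) over (count + 1). The limma fit was tested on simulated counts.

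The members, the pairs and the gene lists were chosen with earlier results of these data known. Every member could be named; values in every library are given for the 10 called members with the largest falls, both with rises, genes with the highest mean in their class and genes of the pairs, and for Prpf39, chosen after its values were seen. An item that meets this rule is not reported here, though the counts and medians over the members and the adjustment over 6 pairs include it. The 2 called genes with the largest absolute change are named for each list. Lsm8 is listed as Naa38 and Nhp2l1 is the older symbol of Snu13. Sf3b6 stands under the symbol 0610009D07Rik and U2af1l4 in a row shared with Igflr1, so the rule found neither. Lengths, GC content and overlaps came from GENCODE M21, with all 48 models matched. Coding sequences of the 47 genes were searched with BLAST+ 2.17.0 for stretches of at least 100 bases and 95% identity in other genes, which 17 have. Libraries of a cell type differed by far more than sampling noise (chi-square per degree of freedom of at least 11.2). Alternatives were other pseudocounts (0.5 and 8), filters, scalings, edgeR 4.0.16 and DESeq2 1.42.0 on the recovered reads, a GC correction per library by lowess, and fits with libraries left out.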

Additional observations from a re-analysis of the deposited data

Results flagged for a closer look

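Among 96 groups of 4 libraries, 1 for each of the 48 models in each cell type, 9 had a library far from the others by Dixon's test, and chance flags about 1 in 20 such groups. Spermatid library 1 was the one apart in 4 of them. There Snrpe had 686 normalized counts against 354 to 386 in the other spermatid libraries, Prpf8 had 7040 against 4275 to 4610, Snrpb had 2350 against 778 to 875, and Prpf18 had 1589 against 1771 to 1786. The same library had the highest sum of spermatocyte markers among spermatids, 63698 against 46146 to 52430, and the part of this in those values was not tested. Spermatocyte library 4 was low for Snrpb2, with 1129 against 1951 to 2096 in the other spermatocyte libraries, and for Snrnp27, with 2433 against 3279 to 3395. In the other groups Luc7l2 had 8668 in spermatocyte library 1 against 11818.5 to 12269.5, Sf3a1 had 5982 in spermatid library 4 against 6709 to 6724, and Prpf6 had 1294 in spermatid library 3 against 1336 to 1340.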

How the results depend on the processing

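Under 23 other settings, 18 of the 20 called members kept their direction and call; the exceptions, Sart3 and Sf3b4, are given with their values above. The number of members called lower ran from 17 (TMM scaling) to 25 (equal totals, and quantile normalization), with 18 to 19 when any library was left out and 19 with edgeR, DESeq2 or GC correction. The number called higher was 1 with equal totals or quantile normalization, 1 to 3 when any library was left out, and 2 with edgeR, DESeq2 or GC correction. The members' median log2 fold change was -1.13 with equal totals, -1.06 with quantile normalization and -0.57 with TMM, while the median of all tested models moved to -0.44, -0.35 and 0.12. Over all models 14333 were called lower with no filter, 5470 with a minimum of 50, 5484 without spermatocyte libraries 3 and 4, 3831 among genes with a GC value (added after seeing the data) and 3880 with GC correction; fewer or more models are tested in each of these. Leaving out a library gave 5829 to 8670 lower and 7235 to 9314 higher.

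Fold changes that turned were those of uncalled genes. Snrpf was -0.27 with equal totals, -0.23 with quantile normalization, -0.22 with GC correction, -0.21 to 0.43 when any library was left out (lowest without spermatocyte library 4), -0.31 without spermatocyte libraries 3 and 4 and -0.052 without spermatid library 1 and spermatocyte library 4, a setting added after seeing the data. Snrpb2 was -0.22, -0.13 and -0.34 in the first 3 of these, -0.0098 without spermatocyte libraries 3 and 4 and -0.041 in the last. With equal totals and quantile normalization, Prpf38a was -0.24 and -0.20, Snrnp27 -0.27 and -0.26, and Snrpd2 -0.13 and -0.11; Prpf38a was -0.33 with GC correction. The Luc7l3 to Luc7l2 difference ran from -0.18 to 0.24 when any library was left out, with -0.17 without spermatid library 1, -0.18 without spermatocyte library 4 and -0.17 without spermatocyte libraries 3 and 4. The cause was not tested. The pair U2af1l4 to U2af1 was not run. With a library left out, 0.0571 is the smallest permutation p, so such p-values say nothing about stability. No paired analysis was possible because the labels give the libraries no replicate numbers.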
